A study of Mus musculus with 4 samples.

Results

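The insulin-like growth factor (IGF) axis was described in stromal cells of the mouse small intestine through 9 of the 18619 genes in the expression matrix, namely the ligands Igf1 and Igf2, the receptor Igf1r and the binding proteins Igfbp2, Igfbp3, Igfbp4, Igfbp5, Igfbp6 and Igfbp7. The 9 genes were chosen by name and not by their values, and all 9 were in the file. The cells came from adult C57BL/6J mice that carried Pdgfrb-Cre-ERT2, a tamoxifen-inducible Cre recombinase driven by the gene of the PDGFRβ receptor, a tdTomato reporter, and floxed alleles of Lats1 and Lats2. LATS1 and LATS2 are kinases that restrain the transcriptional coactivators YAP and TAZ, and the mice are called LATS1/2 KO 1w because the cells were taken 1 week after deletion. Small intestines without serosa and muscle layer were dissociated, immune, epithelial and endothelial cells were depleted with beads, and tdTomato+ cells were sorted and sequenced with a droplet kit that counts transcripts by molecular tags (UMIs) at their 3′ ends.

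Of the 4 libraries of the series, in 3 groups, only that of LATS1/2 KO 1w is described. Not analysed here were 2 WT libraries, from mice with the same Cre and reporter, and 1 of LATS1/2 KO 2w. No comparison with WT was therefore made, and everything below is a description of 1 library of cells with the Cre, the reporter and the floxed alleles. For each genotype the data were stated to come from 2 mice, without saying how these divide over its libraries. The library held 4108 cells with 46054627 UMIs, a median of 10726 per cell (1965 to 35727), and all barcodes differed. Lats1 stood at 14.2 counts per 1000000 UMIs (CPM) and Lats2 at 53.5 CPM, which does not measure the deletion, because 3′ tags may lie outside the floxed exons and no WT library was set beside them. With 1 library there are no replicates and no test. Levels are pooled CPM with exact 95% Poisson intervals, ratios have exact conditional binomial intervals and shares of cells exact Clopper-Pearson intervals, all of which cover counting error only and not the spread between mice.

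IGF1 and IGF2 are secreted peptides that bind IGF1R, a receptor tyrosine kinase that signals through IRS adaptors, PI3K and AKT to promote growth and survival. Most IGF outside cells is held by the IGFBPs, which compete with the receptor for the ligand, protect it from clearance, and release it when proteases such as PAPP-A cut them. In the intestine, stromal cells are a known source of IGF1 for the epithelium, and the IGFBPs of the tissue are largely stromal products. Amotl2 is a well-known target gene of YAP and TAZ, and served here as a readout by which cells were ordered.

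The classes of cells came from 10 clusters built without the 9 genes among the variable genes. A cluster took a name when every marker of a list counted there, that is, reached 10% of its cells and 2 times the median level of the other clusters. FB4, a fibroblast type marked by Ackr4, Grem1, Cilp, Cd81 and Pi16, was 1 cluster of 689 cells. FB5, marked by Foxl1, Sox6, Bmp5, Bmp7 and Pdgfra, held 205 cells, smooth muscle cells (SMC) 76, mural cells (MC) 70 and the P2rx1+ villus fibroblasts vFB3 45. The other 5 clusters, with 3023 cells (73.6%), fitted no list in full. They carried the villus fibroblast gene Adamdec1 at 4068 CPM or more and are called villus fibroblasts (vFB) by exclusion. All names stand for likeness by markers. The classes were not clean. All 5 villus markers (Adamdec1, Shisa3, Serpina3n, Ccl11 and Cxcl13) were in 10% or more of the cells of each villus cluster, but 1 counted in cluster 1, 3 in cluster 2, 2 in clusters 4 and 5 and 0 in cluster 6. The same 5 were in 10% or more of the FB4 cells, and 4 of the 5 in SMC, MC and vFB3. Detection alone thus does not separate the villus clusters from FB4. Cluster 4 counted 3 FB4 markers, and clusters 5 and 6 counted 3 and 4 of the 5 vFB3 markers, with Fhl2 among the 10 leading genes of cluster 6. Values without cluster 6 were computed after this was seen, and the member counts between classes (2 higher and 17 lower in all) and across Amotl2 level (3 and 1) were the same without it. Further, FB4 counted 2 villus markers, with Shisa3 at 124 CPM above its level in every villus cluster (19.1 to 109 CPM), Foxl1 was lower in FB5 (12.4 CPM) than in cluster 5, cluster 6, SMC and vFB3 (13.5 to 25.2 CPM), the FB5 cluster had the pericyte genes Kcnj8 and Abcc9 among its 10 leading genes, SMC carried Adamdec1 at 4237 CPM, and MC counted 4 of 6 SMC markers at a median depth of 6853 UMIs. The defining markers of immune (Ptprc, 22 UMIs), endothelial (Pecam1, 0 UMIs), epithelial (Epcam, 4 UMIs) and mesothelial cells (Msln, 0 UMIs) were at or near 0 in the library.

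Free RNA in the droplets sets a floor to all levels. In 2004 cells in which 5 or more Xist UMIs were counted, UMIs of Y-linked genes bounded it at 8.64% of a gene's level in the library, and a class at or under that bound was read as background. For Igfbp3 the bound was 25.9 CPM, for Igfbp5 21.9 CPM and for Igfbp6 17.6 CPM.

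The 9 genes differed widely in level over the whole library. Igfbp7, a secreted protein that binds IGFs only weakly, stood at 7600 CPM with at least 1 UMI in all 4108 cells, and was rank 7 of all genes by UMIs. Igfbp4 followed at 829.8 CPM, then Igf1 at 329 CPM, Igfbp3 at 300.1 CPM, Igfbp5 at 253 CPM, Igfbp6 at 203 CPM and Igf1r at 109 CPM. These levels are UMIs read at 3′ ends, so gene length does not enter them. At the other end were Igfbp2 at 5.41 CPM, with 249 UMIs in 100 cells, and Igf2 at 0.174 CPM, with 8 UMIs in 8 cells. The intervals of neighbours in this order did not overlap.

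Igf1, the main IGF ligand after birth, was present in every class. Its pooled level was 361 CPM in villus fibroblasts (355 to 368), 222 CPM in vFB3 (185 to 264), 235 CPM in FB4 (225 to 246), 195 CPM in FB5 (178 to 213), 658 CPM in SMC (601 to 718) and 98.5 CPM in MC (74.6 to 128). SMC were highest and MC lowest, while the intervals of vFB3 and FB4 overlapped, as did those of vFB3 and FB5. Igf1 was spread over the cells of SMC, with a UMI in 84.0% of cells thinned to 5000 UMIs (73.7 to 91.5) against 67.5% in villus fibroblasts (65.8 to 69.2). Unthinned, the shares were 89.5% and 82.2%. In MC, 57 UMIs lay in 13 of 70 cells, and the ratio of MC to villus fibroblasts, 0.273 (0.206 to 0.354), was 0.018 among cells of at most 5% mitochondrial UMIs, so the MC level rests on few cells.

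Igf2, the fetal ligand and the partner that IGFBP6 prefers, was hardly seen. Of its 8 UMIs, 4 were in villus fibroblasts, 2 in FB4, and 1 each in vFB3 and SMC, with no cell above 1 UMI. FB5 and MC had 0 UMIs, which by a floor of 3 counts allows up to 1.20 CPM and 5.18 CPM. No order of the classes can be read at this depth.

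Igf1r, the signalling receptor of both ligands, varied less between classes than Igf1. It stood at 119 CPM in villus fibroblasts (115 to 123), 89.4 CPM in vFB3 (66.8 to 117), 90.5 CPM in FB4 (84.2 to 97.1), 137 CPM in SMC (112 to 166) and 112 CPM in MC (86.7 to 143). FB5 was apart at 40.8 CPM (33.3 to 49.5), a ratio to villus fibroblasts of 0.343 (0.279 to 0.417). SMC and MC did not differ from villus fibroblasts beyond counting error. Both the ligand and its receptor were thus detected in the same classes. The share of thinned cells with a UMI of both was 38.7% in cluster 1, where independent detection would give 38.8%, 22.0% against 21.1% in cluster 2, 18.1% against 20.7% in cluster 4, 30.3% against 31.0% in cluster 5 and 19.6% against 21.4% in cluster 6.

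**Figure D1:**
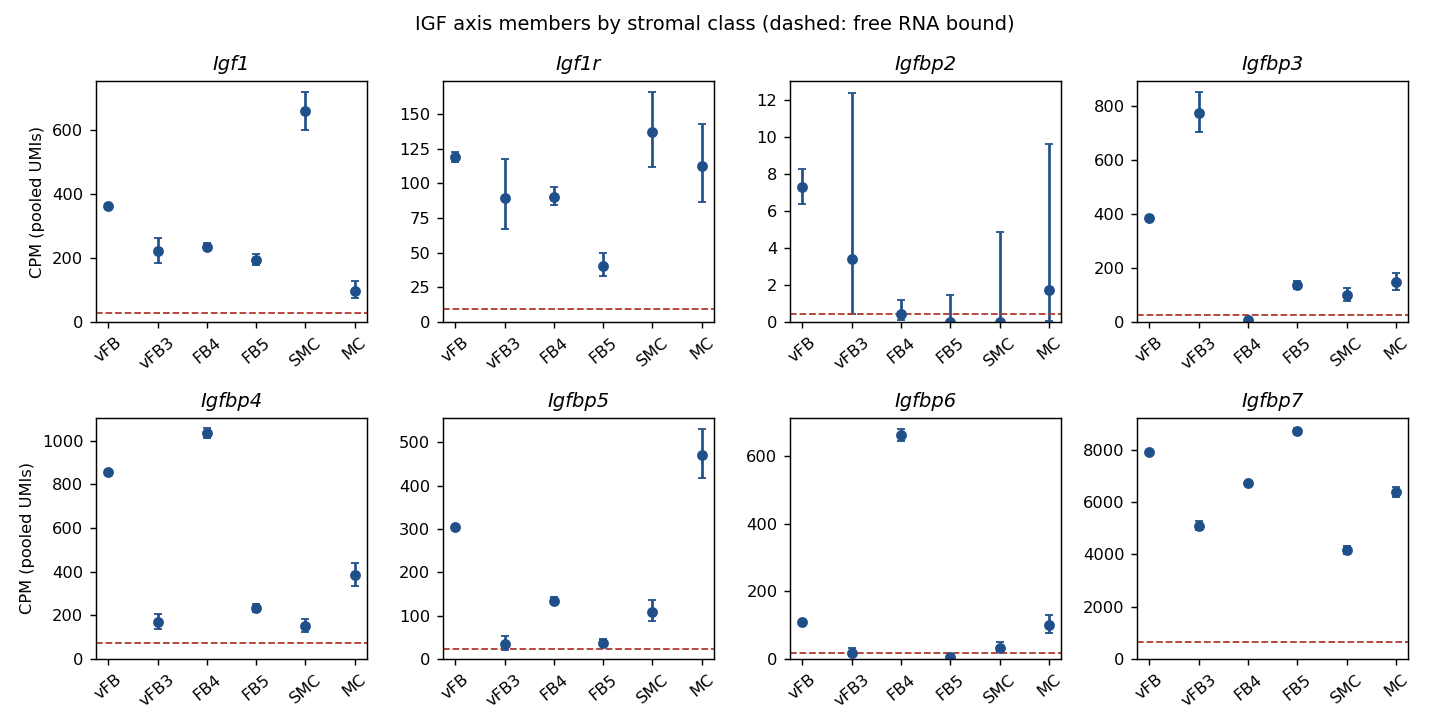
Pooled CPM (y axis, linear from 0, own scale in each panel) of 8 genes in villus fibroblasts (vFB), vFB3, FB4, FB5, smooth muscle cells (SMC) and mural cells (MC). Bars are exact 95% Poisson intervals and the dashed line is the free RNA bound. Igfbp6 is high in FB4 (661 CPM), Igfbp3 in vFB3 (776 CPM) and in FB4 at 8.66 CPM under its bound, and Igf1 in SMC (658 CPM).

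Igfbp3 and Igfbp6 showed the widest contrasts among the binding proteins, with opposite orders in villus fibroblasts and FB4. Igfbp3, the main carrier of IGF in blood, stood at 386 CPM in villus fibroblasts (380 to 393), 776 CPM in vFB3 (706 to 851), 138 CPM in FB5 (124 to 153), 99.6 CPM in SMC (78.4 to 125) and 147 CPM in MC (117 to 182). In FB4 it was 8.66 CPM (6.80 to 10.9), below the free RNA bound, a ratio to villus fibroblasts of 0.022 (0.018 to 0.028). Only 5.22% of FB4 cells had an Igfbp3 UMI, against 91.1% of vFB3 and 62.3% of villus fibroblasts.

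Igfbp6, the binding protein with a preference for IGF2, ran the other way. It stood at 661 CPM in FB4 (644 to 679) and at 109 CPM in villus fibroblasts (106 to 113), a ratio of 6.06 (5.81 to 6.32). After thinning, 74.5% of FB4 cells (71.0 to 77.7) and 26.4% of villus fibroblasts (24.9 to 28.1) had a UMI, and unthinned 85.5% and 38.7%. MC stood at 100.2 CPM, but 58 UMIs lay in 8 cells, and their ratio of 0.918 to villus fibroblasts was 0.052 among cells of at most 5% mitochondrial UMIs. SMC were at 33.2 CPM, while vFB3 (17.2 CPM) and FB5 (4.80 CPM) were under the free RNA bound.

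Igfbp4, a binding protein that inhibits IGF action until PAPP-A cuts it, was shared by villus fibroblasts and FB4. It stood at 857 CPM in villus fibroblasts (847 to 867), 1034 CPM in FB4 (1013 to 1056), 169 CPM in vFB3 (137 to 205), 232 CPM in FB5 (213 to 251), 151 CPM in SMC (125 to 182) and 384 CPM in MC (335 to 437). The 4 smaller classes were all lower than villus fibroblasts, with ratios from 0.177 in SMC to 0.448 in MC, which were 0.369 and 0.201 among cells of at most 5% mitochondrial UMIs.

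Igfbp5, which binds to matrix as well as to IGFs, was highest in MC at 472 CPM (417 to 531), followed by villus fibroblasts at 304 CPM (298 to 310), FB4 at 134 CPM (126 to 142) and SMC at 109 CPM (86.6 to 135). The ratio of MC to villus fibroblasts, 1.55, was 1.02 in M cells only and 2.04 in F cells only. FB5 at 37.6 CPM and vFB3 at 34.4 CPM did not differ beyond counting error. Its spread over cells differed between classes. In MC, 46 of 70 cells had a UMI, while in FB4 1142 UMIs lay in 99 of 689 cells, up to 198 in a cell, and the 69 FB4 cells with most of it held 97.4%.

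The FB4 cells with 5 or more Igfbp5 UMIs (46 cells) were set beside the 590 FB4 cells without any, a comparison chosen after these values were seen. The 5 FB4 markers did not move together. Pi16, known from adventitial fibroblasts, stood at 719.7 CPM in them and 109 CPM in the others (ratio 6.58, 5.85 to 7.39), and Cilp was higher too (1.58, 1.38 to 1.80). Grem1, a BMP antagonist, stood at 213 CPM and 886 CPM (ratio 0.241), Ackr4 was lower (0.542, 0.470 to 0.621), and Cd81 did not differ beyond counting error (0.970, 0.867 to 1.08). Among the other binding proteins, Igfbp6 was 1119 CPM against 611 CPM (ratio 1.83, 1.69 to 1.98) and Igfbp4 810.2 CPM against 1079 CPM (ratio 0.751). Igfbp3 had 18 UMIs and stood at 27.6 CPM, near its free RNA bound of 25.9 CPM, against 6.71 CPM (ratio 4.12, 2.25 to 7.21). Markers of other classes moved with this split as well. Of the villus markers, Ccl11 (1.77, 1.54 to 2.03) and Adamdec1 (1.22, 1.02 to 1.46) were higher in the Igfbp5-bearing cells, Serpina3n (0.565) and Cxcl13 (0.199) lower, and the interval of Shisa3 (0.968) spanned 1. Of the mural markers, Vtn was higher (6.59, from 6 UMIs against 10) and Rgs5 lower (0.318, 0.208 to 0.465), while Notch3, Mcam, Ndufa4l2 and Gja4 had 0 to 14 UMIs and intervals spanning 1. Their part in the Igfbp5 pattern was not tested. The Igfbp5-bearing cells were deeper, with a median of 14352.5 UMIs against 11809.5.

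Igfbp7 ran from 4171 CPM in SMC (4027 to 4320) to 8695 CPM in FB5 (8579 to 8811), with villus fibroblasts at 7892 CPM, FB4 at 6706 CPM, MC at 6374 CPM and vFB3 at 5096 CPM. Igfbp2, which lies beside Igfbp5 on chromosome 1, had 242 of its 249 UMIs in villus fibroblasts (7.31 CPM, 6.42 to 8.29), 4 in FB4, 2 in vFB3, 1 in MC and 0 in FB5 and SMC.

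Against villus fibroblasts, 7 of the 9 genes had a mean level of 20 CPM or more in each comparison, which Igf2 and Igfbp2 did not. In vFB3, 1 of 7 was 2-fold or more higher and 3 lower, beside 7.27% and 5.95% of all genes tested. In FB4 it was 1 and 2, beside 2.86% and 3.4%. FB5 had 0 higher and 5 lower, beside 5.56% and 5.92%, with Igf1r, Igfbp3, Igfbp4, Igfbp5 and Igfbp6 lower. SMC had 0 and 4, beside 5.74% and 6.5%, and MC 0 and 3, beside 10% and 7.25%. The 5 comparisons share the villus fibroblasts as their base, so the lower counts are not independent of each other. The Igfbp3 ratio of vFB3 sat at the threshold, at 2.01 (1.82 to 2.21), and was under it in 4 alternatives, from 1.64 in F cells only to 1.99 with nothing regressed out. Among cells of at most 5% mitochondrial UMIs, Igfbp3 in SMC (0.715), MC (1.06) and FB5 (0.637) and Igfbp5 in SMC (0.768) were no longer past the fold. There Igfbp5 in MC was past it upward (2.03) and Igfbp6 in MC downward (0.052), with 8 SMC and 25 MC cells left. Calls also ended for Igfbp3 in MC (0.736) and FB5 (0.529) in F cells only, and for Igfbp4 in MC (0.59) and Igfbp5 in FB4 (0.537) in M cells only.

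Within the villus fibroblasts the 5 clusters did not share a level. Amotl2 was above the 148 CPM of all villus fibroblasts in cluster 1 (259 CPM) and cluster 6 (164 CPM) and below it in cluster 2 (49.9 CPM), cluster 4 (78.3 CPM) and cluster 5 (59.2 CPM). The summed level of 7 immediate early genes such as Fos and Egr1, which tissue dissociation is known to raise, came to 313 CPM in cluster 6, 1225 CPM in cluster 5 and 2168 to 9312 CPM in the other 3. Clusters 5 and 6, under 0.5 of the 3773 CPM of all villus fibroblasts, are called immediate-early-low and the others immediate-early-high. This split was made after the values were seen. A split at the pooled level itself, the rule used for Amotl2, would put cluster 2 (2168 CPM) on the low side, and was run as well.

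For Igf1, cluster 1 (464 CPM) and cluster 5 (463 CPM) did not differ beyond counting error, followed by cluster 6 (389 CPM), cluster 2 (270.4 CPM) and cluster 4 (179 CPM). Amotl2-high and Amotl2-low clusters therefore overlapped in Igf1. Those of Igfbp5 did not overlap, with 60.3 CPM in cluster 6 and 214 in cluster 1 on the high side, and 377 CPM in cluster 4, 447 in cluster 2 and 490.5 in cluster 5 on the low side of Amotl2. Igfbp5 was among the 10 leading genes of cluster 2.

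Igfbp3 was highest in the 2 clusters with least immediate early RNA, with 949 CPM in cluster 5, 582 in cluster 6 and 183 to 325 CPM in the other 3. It ranked 2 among the leading genes of cluster 5. Igfbp6 ran opposite to it over the same clusters, with 109 to 163 CPM in the other 3. It was near its free RNA bound of 17.6 CPM in cluster 5 (22.4 CPM). In cluster 6 it was just under that bound (17.4 CPM) and is read as background. Between the immediate-early-low and the immediate-early-high clusters, Igfbp3 had a ratio of 4.15 (3.94 to 4.36) among Amotl2-low cells and 1.79 (1.70 to 1.89) among Amotl2-high cells, and Igfbp6 of 0.202 (0.159 to 0.253) and 0.107 (0.083 to 0.136). With the split at the pooled level, the ratios among Amotl2-low cells were 1.56 (1.48 to 1.65) for Igfbp3 and 0.758 (0.684 to 0.840) for Igfbp6. Cluster 2, then on the low side, had the lowest Igfbp3 of the villus clusters (183 CPM) and Igfbp6 at 113 CPM. Whether dissociation has a part in this was not tested, and cluster 5 and 6 also counted vFB3 markers.

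**Figure D2:**
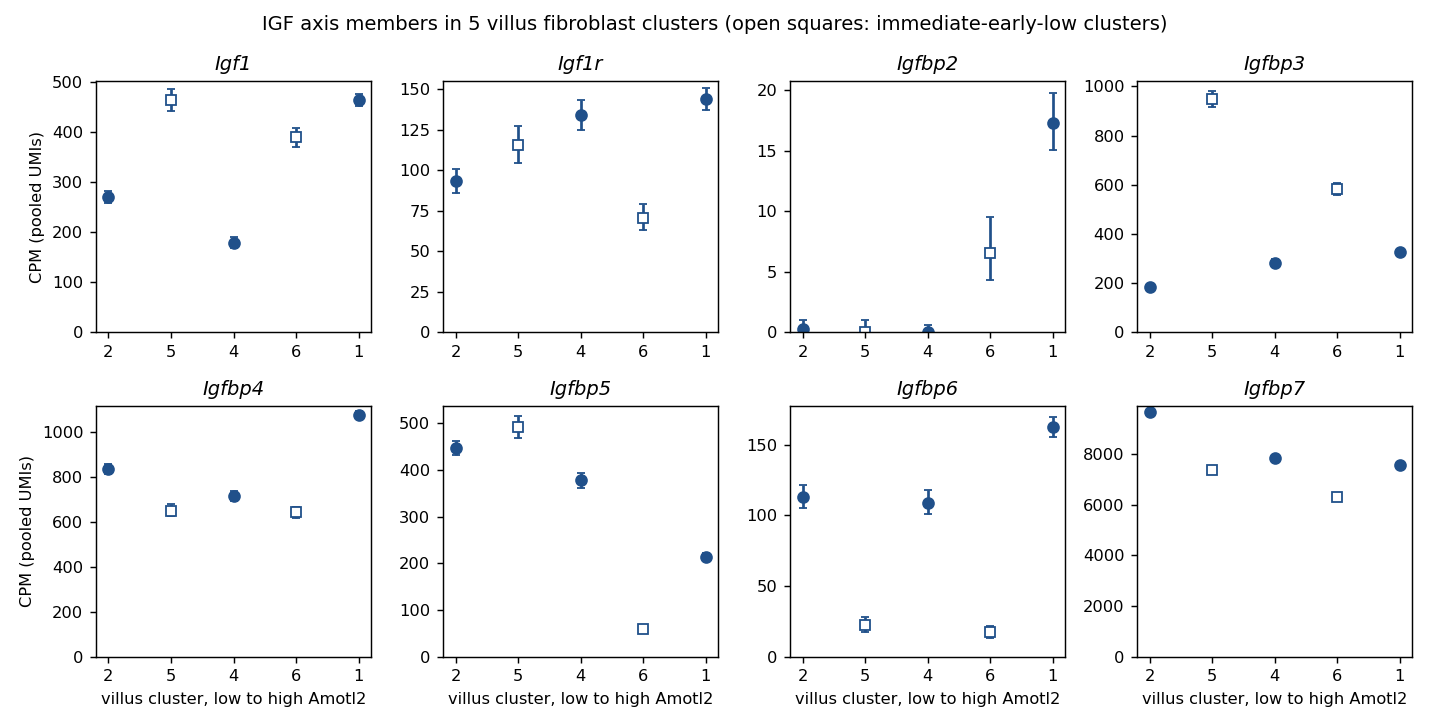
Pooled CPM (y axis, linear from 0) of 8 genes in the 5 villus fibroblast clusters, placed from low to high Amotl2, with exact 95% Poisson intervals. Open squares are the clusters with little immediate early RNA. Igfbp5 is lower in clusters 6 and 1 (60.3 and 214 CPM) than in the other 3 (377 to 490.5 CPM), and Igfbp2 is near 0 outside them.

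To follow Amotl2 cell by cell, 2968 villus fibroblasts were thinned to 5000 UMIs each and sorted by their Amotl2 UMIs into 0 (1745 cells), 1 (717 cells), 2 (312 cells) and 3 or more (194 cells). Igf1 stood at 293, 356, 419 and 502 CPM in that order, and its ratio of the highest to the lowest set was 1.71 (1.55 to 1.89). Igfbp6 stood at 84.0, 114, 119 and 164 CPM (ratio 1.95, 1.63 to 2.32), and Igf1r at 113, 124, 130.1 and 171 CPM (ratio 1.52, 1.28 to 1.79). Pooled over the villus clusters, the ligand, its receptor and Igfbp6 were thus higher where Amotl2 was higher, although Igfbp6 was lowest in cluster 6, an Amotl2-high cluster. Igf1r was just past the fold of 1.5 used here. Igf1r was inside it in cells of 8000 to 14000 UMIs (1.40), in M cells only (1.41), by unthinned Amotl2 (1.36, top against bottom 25% of cells) and with mitochondrial, ribosomal and member genes out of the total (1.47).

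Igfbp5 went down along the same sets, at 344, 303, 223 and 172 CPM (ratio 0.501, 0.426 to 0.585). Igfbp7 did so to a lesser degree, from 8426 to 6531 CPM (ratio 0.775, 0.755 to 0.795), and Igfbp4 went up from 792 to 1035 CPM (ratio 1.31, 1.22 to 1.40), which was 1.04 (0.907 to 1.18) in M cells only and 1.01 (0.787 to 1.29) in the immediate-early-low clusters. Igfbp3 stood at 423, 417 and 421 CPM in the lower 3 sets and at 343 CPM in the highest (ratio 0.811, 0.723 to 0.908), but its direction turned within the immediate-early-high clusters described above (1.20, 1.06 to 1.36) against 0.518 (0.384 to 0.684) within the immediate-early-low ones. With the split at the pooled level these ratios were closer, at 1.04 on the high side and 0.813 on the low side. Of the 7 genes tested, 3 were 1.5-fold or more higher and 1 lower, beside 7.72% and 4% of all 6076 genes tested (469 and 243 genes, and 474 and 407 with mitochondrial, ribosomal and member genes out of the total).

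These sets differed in more than Amotl2. Cluster 1 made up 20.3% of the cells with 0 Amotl2 UMIs and 81.4% of those with 3 or more, the median depth before thinning went from 10010 to 11956.5 UMIs, and the share of cells marked M went from 52.6% to 41.8%. Within cluster 1 alone, 158 cells with 3 or more against 354 with 0, none of the 7 genes passed 1.5-fold, beside 6.92% higher and 2.87% lower of all genes. There Igf1 had a ratio of 1.29 (1.15 to 1.46), Igf1r of 1.35 (1.09 to 1.66), Igfbp6 of 1.28 (1.03 to 1.59), Igfbp5 of 0.777 (0.631 to 0.951) and Igfbp4 of 1.04 (0.959 to 1.13). The directions of Igf1, Igf1r, Igfbp5 and Igfbp6 were those of the pooled comparison and each was smaller. In cluster 6, with 20 such cells, the intervals of these 4 genes spanned 1, and 0 of 7 genes were higher and 1, Igfbp3 (0.656, 0.471 to 0.895), lower, beside 22.8% and 14.7% of all genes. With the summed UMIs of 3 YAP/TAZ targets, Amotl2, Ajuba and Cyr61, in place of Amotl2, Igf1 (1.25) and Igfbp5 (0.797) no longer passed 1.5-fold, while Igfbp6 (2.05) and Igf1r (1.57) did. With cells thinned to 2000 UMIs, Igf1 alone passed it (1.52), and Igfbp6 (1.11), Igf1r (1.30) and Igfbp5 (0.697) did not.

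**Figure D3:**
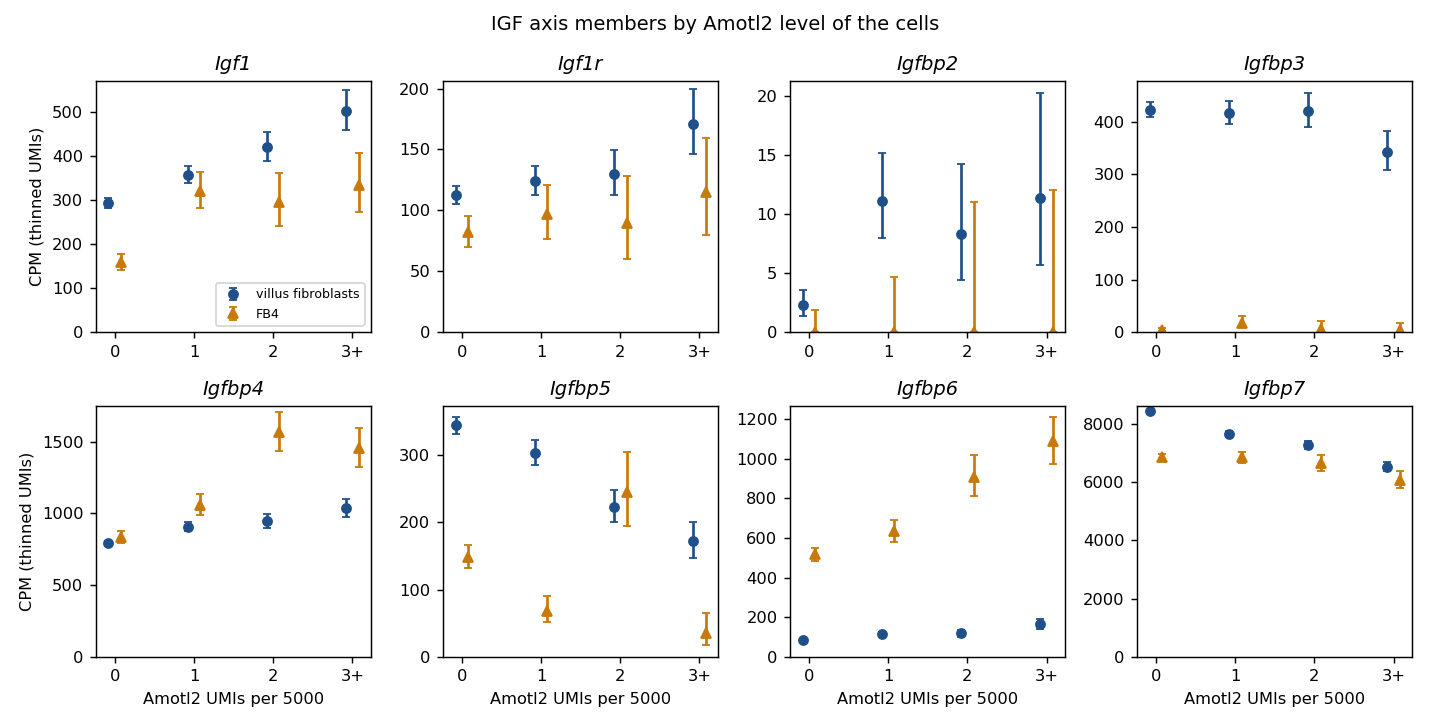
Pooled CPM of 8 genes (y axis, linear from 0) in cells thinned to 5000 UMIs, by their Amotl2 UMIs (x axis), for villus fibroblasts (circles) and FB4 (triangles), with exact 95% Poisson intervals. In villus fibroblasts Igf1 goes from 293 to 502 CPM and Igfbp5 from 344 to 172 CPM. In FB4, Igfbp5 has no steady course.

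Comparing the clusters gave a similar picture for Igfbp5 and a weaker one for the others. Between the Amotl2-high (1397 cells) and Amotl2-low clusters (1626 cells) Igfbp5 stood at 175 against 431 CPM (ratio 0.407, 0.389 to 0.425) and Igf1 at 445 against 278 CPM (ratio 1.60, 1.54 to 1.66, and 1.46 in F cells only). Igfbp6 (1.37), Igfbp4 (1.28), Igf1r (1.11), Igfbp3 (1.02) and Igfbp7 (0.854) stayed inside 1.5-fold. That made 1 of 7 genes higher and 1 lower, beside 4.76% and 4.44% of all genes. Without cluster 6, Igfbp6 was past the fold as well (1.76). Since the clusters were built from the genes of the same cells, these ratios describe the clusters.

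The Igf1 difference was not seen in every pair of clusters. Among the immediate-early-high clusters, cluster 1 against clusters 2 and 4, Igf1 had a ratio of 2.03 (1.94 to 2.13), with 1 of 7 genes higher and 1 lower beside 5.61% and 3.52%. In the immediate-early-low pair, cluster 6 against cluster 5, it was 0.840 (0.784 to 0.901), below 1. Igf1r turned in the same way, from 1.28 (1.20 to 1.38) to 0.612 (0.525 to 0.712), and Igfbp3 from 1.42 (1.35 to 1.49) to 0.614 (0.582 to 0.647). Igfbp6 went from 1.46 (1.36 to 1.56) to 0.777 (0.557 to 1.08), the latter from levels near or under its free RNA bound and under the level filter. Igfbp5 kept its direction, at 0.516 (0.492 to 0.540) and 0.123 (0.107 to 0.140). In the immediate-early-low pair 0 of 6 tested genes were higher and 3 lower, beside 6.05% and 17.5%. For the cell-by-cell sets in clusters 5 and 6 together, with 22 cells at 3 or more Amotl2 UMIs, the ratio of Igf1 was 1.07 (0.774 to 1.44), that of Igf1r 0.755 (0.341 to 1.46) and that of Igfbp5 0.389 (0.217 to 0.647). The ratio of Igfbp6 in these sets was 1.91, above 1, where the pair of clusters gave 0.777. With the split at the pooled level, the immediate-early-low clusters (6 against 2 and 5) gave 1.16 (1.09 to 1.23) for Igf1 and 1.32 (1.26 to 1.39) for Igfbp3, both turned, 0.702 (0.615 to 0.800) for Igf1r, 0.211 (0.163 to 0.268) for Igfbp6 and 0.131 (0.115 to 0.148) for Igfbp5. The cell-by-cell ratio of Igfbp6 there was 0.655 (0.211 to 1.54, from 5 UMIs) and that of Igf1 1.28 (0.945 to 1.71). Igfbp5 was thus below 1 in each of these comparisons, and Igf1 was past the fold only where the immediate-early-high clusters entered.

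**Figure D4:**
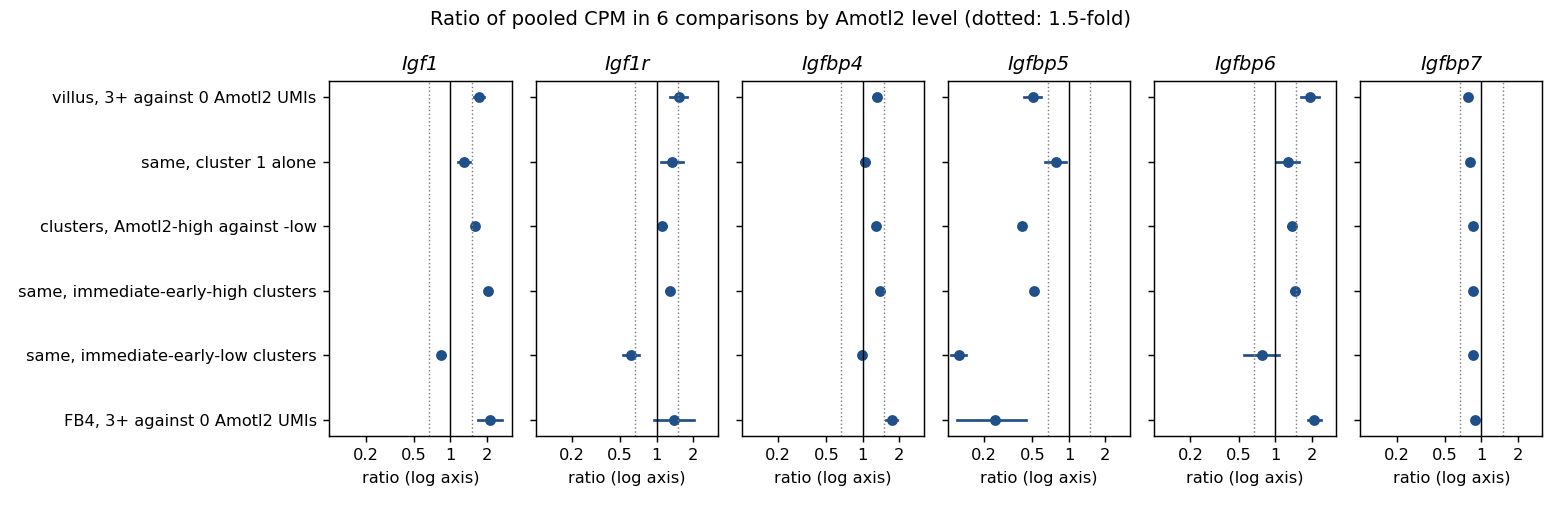
Ratio of pooled CPM (x axis, log scale) with exact conditional binomial 95% intervals for 6 genes in 6 comparisons by Amotl2 level, named at the left. The solid line is a ratio of 1 and the dotted lines are 1.5-fold. Igfbp5 is left of 1 in all 6 rows, with cluster 1 alone nearest to it (0.777), while Igf1 is left of 1 in the immediate-early-low clusters (0.840). The FB4 row of Igfbp5 rests on 11 UMIs in 1.64% of the 61 cells with 3 or more Amotl2 UMIs.

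Igfbp2, a fetal and growth-related binding protein, was rare but sat almost wholly on the Amotl2-high side. Of the 100 cells with a UMI, 92 were in the Amotl2-high villus clusters and 2 in the Amotl2-low ones. The UMIs were 240 against 2, a ratio of 121 (33.2 to 1007). Cluster 1 held 86 of the cells and cluster 6 held 6. Of the 100 cells, 62 had 1 UMI, and the highest had 28. By Amotl2 UMIs of thinned cells, Igfbp2 stood at 2.29 CPM at 0, 11.2 CPM at 1, 8.33 CPM at 2 and 11.3 CPM at 3 or more (11 UMIs), a ratio of the highest to the lowest set of 4.95. That ratio was 17.1 by unthinned Amotl2 (top against bottom 25% of cells), and 0 UMIs stood in the highest set within the immediate-early-low clusters. Its ratio in cluster 1 alone was 1.54 (0.646 to 3.53), which includes 1. Igfbp2 was under the level filter and enters none of the counts. Igfbp2 and Igfbp5 are neighbours that point toward each other (GENCODE M21, mm10, chr1:72824503-72852474 on the plus strand and chr1:72857932-72874884 on the minus strand), with 5457 bases between their 3′ ends. Among the villus clusters, Igfbp2 was higher in the 2 where Igfbp5 was lower. This did not hold over the classes, since FB5 (37.6 CPM) and vFB3 (34.4 CPM), lower still in Igfbp5, had 0 and 2 Igfbp2 UMIs.

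The promoter of Igfbp5, the member past 1.5-fold lower with Amotl2, is shown with those of Igf1, which was higher, and of Amotl2 itself, since YAP and TAZ reach DNA through TEAD factors, whose core motif is GGAATG, which on the other strand reads CATTCC. The 250 bases before the RefSeq start are given (GRCm38.p6, written along the gene's strand), at chr1:72874866-72875115 on the minus strand for Igfbp5, chr10:87860861-87861110 on the plus strand for Igf1, inside the gene as GENCODE draws it, and chr9:102717554-102717803 on the plus strand for Amotl2. Capitals mark the motif on either strand.
Igfbp5: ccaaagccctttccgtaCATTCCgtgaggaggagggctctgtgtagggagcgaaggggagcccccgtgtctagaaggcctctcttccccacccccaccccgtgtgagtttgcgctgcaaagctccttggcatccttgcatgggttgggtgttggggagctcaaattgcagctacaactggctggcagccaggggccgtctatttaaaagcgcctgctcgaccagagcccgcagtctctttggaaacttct
Igf1: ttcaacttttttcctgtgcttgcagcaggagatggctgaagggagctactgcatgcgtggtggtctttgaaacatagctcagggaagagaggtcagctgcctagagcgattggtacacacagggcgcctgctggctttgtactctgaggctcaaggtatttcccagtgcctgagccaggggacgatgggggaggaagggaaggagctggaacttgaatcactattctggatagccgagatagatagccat
Amotl2: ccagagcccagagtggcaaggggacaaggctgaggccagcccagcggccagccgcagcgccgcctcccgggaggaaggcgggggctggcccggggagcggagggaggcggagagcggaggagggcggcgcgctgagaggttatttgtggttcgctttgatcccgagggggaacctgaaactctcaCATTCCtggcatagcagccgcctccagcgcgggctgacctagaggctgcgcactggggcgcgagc
The letters occur at -233 from the start in Igfbp5 and at -65 in Amotl2, and not in this window of Igf1. All 9 genes had a RefSeq window of 250 bases before to 50 after the start. Besides Igfbp5, Igf2 held the motif, in 3 of its 4 windows, and Igf1r, Igfbp2, Igfbp3, Igfbp4, Igfbp6 and Igfbp7 did not. The motif is in 14.7% of all 32851 such windows, and it was chosen after part of the Igfbp5 promoter had been seen. A match describes letters and not binding.

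FB4 cells could be sorted in the same way. In 393 FB4 cells with 0 and 61 with 3 or more Amotl2 UMIs, Igf1 stood at 158 and 334 CPM (ratio 2.11, 1.67 to 2.65), Igfbp6 at 518 and 1089 CPM (ratio 2.10, 1.85 to 2.38) and Igfbp4 at 836 and 1452 CPM (ratio 1.74, 1.56 to 1.93). Igfbp6 went up through all 4 sets (518, 634, 910.4 and 1089 CPM), while Igf1 was already at 320 CPM with 1 Amotl2 UMI. Igfbp5 stood at 149, 68.8, 245 and 36.1 CPM, with no steady course. Its ratio of 0.243 (0.120 to 0.441) rests on 11 UMIs in 1.64% of the 61 cells of the highest set. Of 6 genes tested in FB4, 3 were higher and 1, Igfbp5, lower, beside 15.2% and 9.62% of all genes. The FB4 cells marked M made up 51.7% of the lowest set and 31.1% of the highest. The comparison in FB4 was added after the data had been seen.

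Cells marked F and M in the file, which the authors split by Xist, differed in Igfbp3 and Igfbp4. In villus fibroblasts Igfbp3 stood at 252 CPM in 1530 F cells and 546 CPM in 1493 M cells (ratio 0.461, 0.445 to 0.478). Igfbp4 stood at 1059 and 617 CPM (ratio 1.72, 1.67 to 1.76) and Igf1 at 419 and 293 CPM (ratio 1.43, 1.38 to 1.48). Of 7 genes tested 1 was 1.5-fold or more higher and 1 lower, beside 0.677% and 0.594% of all 6056 genes tested. Igf1r (0.897), Igfbp5 (0.805), Igfbp6 (1.19) and Igfbp7 (1.08) stayed inside 1.5-fold.

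The same direction was seen in each of the 5 villus clusters for these 3 genes. The F to M ratio of Igfbp3 ran from 0.375 to 0.705, that of Igfbp4 from 1.36 to 1.77 and that of Igf1 from 1.17 to 1.55. FB4 had it for Igfbp4 (1349 against 623 CPM, ratio 2.16, 2.06 to 2.27) and Igf1 (286 against 169.8 CPM, ratio 1.68, 1.53 to 1.85), and its Igfbp3 was at background in both. In FB4, 2 of 6 genes tested were higher and 1, Igfbp5, lower (96.3 against 182 CPM, ratio 0.528, 0.468 to 0.595, from few cells as described above), beside 1.4% and 1.43%. FB5 did not show it, with ratios of 0.994 (0.841 to 1.18) for Igfbp4, 0.926 (0.745 to 1.15) for Igfbp3 and 0.869 (0.724 to 1.04) for Igf1, though the classes were not tested against each other. The smaller classes were mixed, and there many genes passed 1.5-fold, with 0 of 6 tested members higher and 2 lower in vFB3 beside 14.6% and 16.1% of all genes, 2 and 1 of 7 in SMC beside 13.1% and 15.3%, and 3 and 1 of 7 in MC beside 14.9% and 15.4%. Igfbp3 was lower in F cells of vFB3 (412 against 1178 CPM, ratio 0.350) and SMC (44.0 against 226 CPM, ratio 0.195) and higher in those of MC (185 against 92.0 CPM, ratio 2.02, 1.22 to 3.44), where its 85 UMIs lay in 20 cells, 28 of them in 1 cell. The intervals for Igfbp4 spanned 1 in vFB3 (0.706), SMC (0.994) and MC (1.09), and Igf1 was higher in F cells of SMC (ratio 2.07, 1.64 to 2.64), with intervals spanning 1 in vFB3 (0.976) and MC (1.52). With cells of at most 5% mitochondrial UMIs the ratio in villus fibroblasts was 0.444 for Igfbp3 and 1.74 for Igfbp4, and among cells of 8000 to 14000 UMIs it was 0.482 and 1.77. With 2 mice stated per genotype and no cell tied to a mouse, sex and mouse cannot be told apart. The Amotl2 result was computed in each mark as well, where Igf1 (1.67 in M, 1.63 in F), Igfbp5 (0.595 and 0.436) and Igfbp6 (2.38 and 1.63) kept their directions, and Igf1r was 1.41 in M and 1.64 in F.

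**Figure D5:**
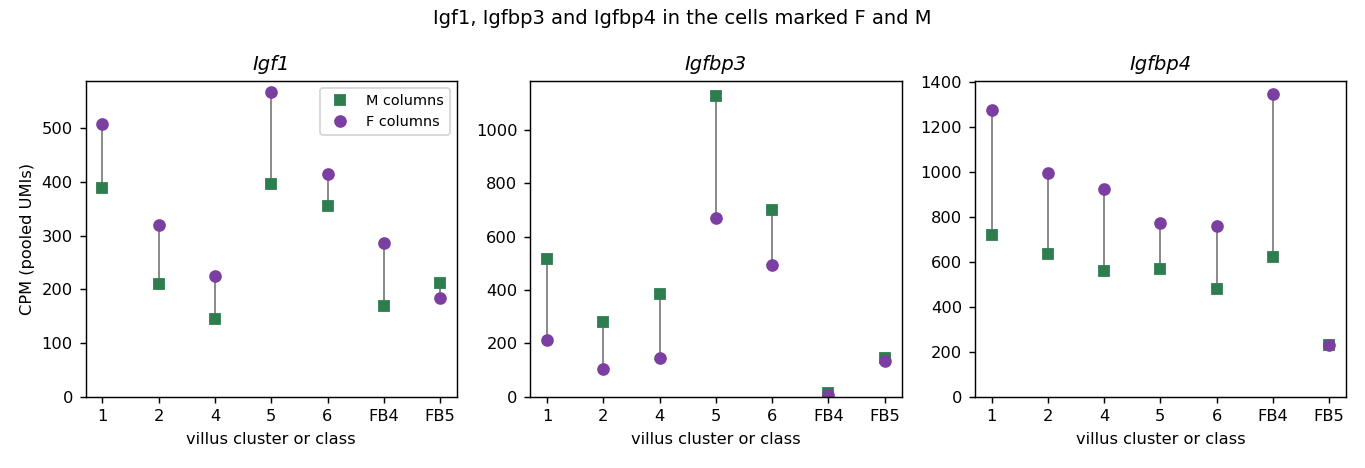
Pooled CPM (y axis, linear from 0) of Igf1, Igfbp3 and Igfbp4 in cells marked F (circles) and M (squares), in the 5 villus fibroblast clusters, FB4 and FB5, with a line joining each pair. Igfbp4 is higher in F cells of every villus cluster and of FB4 (1349 against 623 CPM) and not in FB5 (231 against 232 CPM), and Igfbp3 is lower in F cells of every villus cluster.

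Of 30 other genes of the pathway, 27 were in the file, among them the clearance receptor Igf2r, the insulin receptor Insr, signalling genes such as Irs1, Pik3r1 and Akt1, and proteases of the IGFBPs. Across Amotl2 level in villus fibroblasts 20 were tested, 1 was higher and 1 lower, beside the 7.72% and 4% of all genes given above. Stc2, which encodes stanniocalcin-2, an inhibitor of PAPP-A, stood at 364 CPM in cells with 3 or more Amotl2 UMIs and 161 CPM in those with 0 (ratio 2.26, 2.01 to 2.54). Htra3, a secreted serine protease, stood at 308 and 680 CPM (ratio 0.453, 0.402 to 0.509). Within cluster 1 alone neither passed 1.5-fold (Stc2 1.26, 1.09 to 1.45, and Htra3 0.793, 0.679 to 0.925). Of 19 pathway genes tested there 2 were higher, Irs2 (1.63) and Grb10 (1.54), and 0 lower, beside 6.92% and 2.87% of all genes. Pappa, the protease itself, did not differ beyond counting error (ratio 0.993, 0.723 to 1.34). Between the Amotl2-high and Amotl2-low clusters, Stc2 (2.75) was higher and Htra3 (0.374), Pik3r1 (0.63) and Foxo1 (0.648) lower, and in FB4 by Amotl2 UMIs Stc2 (2.94) and Irs2 (1.63) were higher and Htra3 (0.579) and Igf2r (0.537) lower.

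Against villus fibroblasts, pathway genes past 2-fold were mostly lower, with 0 higher and 4 lower of 21 tested in vFB3, 1 and 1 of 21 in FB4, 1 and 3 of 19 in FB5, 0 and 7 of 20 in SMC and 0 and 3 of 21 in MC, beside the shares of all genes given for these classes above. Htra3 was lower in vFB3 (0.329), FB5 (0.291), SMC (0.299) and MC (0.296), and Htra1, a related protease, in vFB3 (0.24) and SMC (0.426). Stc2 was lower in FB5 (0.379), SMC (0.164) and MC (0.228). Pappa was 122 CPM in FB5 against 48.1 CPM in villus fibroblasts (ratio 2.53), and lower in FB4 (12.9 CPM, ratio 0.268) and SMC (0.414). Foxo1, a transcription factor that AKT restrains, was lower in vFB3 (0.302, from 6 UMIs), FB5 (0.386) and SMC (0.467), and the adaptor Grb10 in vFB3 (0.477) and SMC (0.497). The remaining calls were the endocytic receptor Lrp1 in SMC (0.406), the growth hormone receptor Ghr in MC (0.407) and Igf2r, higher in FB4 (45.0 against 19.7 CPM, ratio 2.29). Igfals, the partner of Igfbp3 and Igfbp5 in blood, had 0 UMIs.

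The genes most like each member were taken by Pearson r of log2(CPM + 10) over the 10 clusters, among 10383 genes with 200 or more UMIs. Those clusters share 1 library, and with 10 points out of 10383 genes high values of r are easily reached. For Igfbp6 they were Pcolce2 (0.978), a collagen-processing enhancer, Ism1 (0.973) and Vegfd (0.971), a lymphatic growth factor, all at 0 or near 0 in FB5 and highest in FB4. For Igfbp3 they were Lrrc32 (0.944), which holds latent TGF-β, Ptprk (0.936) and Adam10 (0.936). For Igfbp4 they were Scrn1 (0.971), Thsd7a (0.955) and Olfml1 (0.945), and for Igfbp5 Cyp2j9 (0.978), Abcd2 (0.941) and Wbp11 (0.934). The nearest gene to Igf1 was Haus1 (0.921), to Igf1r Nlgn2 (0.938), to Igfbp2 Pdha1 (0.95) and to Igfbp7 Eif2d (0.935).

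From cell to cell inside a cluster the correlations between members were small. Counting noise in thinned cells holds r near 0, so small values do not show that the members are unrelated. Over 15 pairs of 6 genes in the 5 villus clusters, Pearson r of log counts in thinned cells ran from -0.206 for Igfbp3 with Igfbp4 in cluster 1 (1051 cells) to 0.226 for Igf1 with Igfbp4 in cluster 6 (316 cells). The value of -0.206 in cluster 1 stands beside the F and M levels of that cluster, where Igfbp3 was 212 CPM in F and 517 CPM in M cells and Igfbp4 1277 and 722 CPM. Some pairs kept their sign in all 5 clusters. Igf1 with Igfbp4 was positive (0.107 to 0.226), and Igfbp3 with Igfbp6 was negative (-0.193 to -0.119).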

How the data were processed

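Per gene and cell, the authors deposited natural log values, ln(1 + x) with x the gene's UMIs scaled to 10000 per cell, made from Cell Ranger counts (3.0.2, mm10) with Seurat. Their methods kept cells of 1000 to 6000 genes and at most 7% mitochondrial UMIs and removed immune and endothelial clusters. UMI counts were read back from these natural log values (100.00% of 13789523 nonzero values whole, tolerance 0.001) and used in place of the raw counts the design had assumed. Doublets were left to the authors' filter. Every cell marked F had an Xist UMI and no cell marked M had one.

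Clusters were built with Seurat 5.3.0 (R 4.3.3) on 2000 variable genes without the 9 members, the pathway list, Amotl2, other YAP/TAZ targets, Vegfc and sex-linked genes, with UMI count and mitochondrial percent regressed out, 30 components and resolution 0.5. Genes with a mean of 20 CPM or more in the sets compared were called at 2-fold between classes and at 1.5-fold otherwise. The functions were tested on simulated data. No test was run, because cells of 1 library are not replicates.

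The 9 members were named whatever their value, pathway genes where past the fold between classes, across Amotl2 level in villus fibroblasts or FB4, or between Amotl2-high and Amotl2-low clusters (their calls in the other comparisons are not listed), and the 3 genes most like a member with 200 or more UMIs, of which 1 is given for 4 members. Igfals and the null value of Pappa were added after their values were seen. The members and lists were chosen with earlier results of these data known. The rule that names clusters, both immediate early splits, the comparisons in FB4, within clusters, between F and M cells, without cluster 6 and by Igfbp5 in FB4, and the motif were chosen after values had been seen. In all, 40 comparisons of sets of cells were computed.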

Additional observations from a re-analysis of the deposited data

How the results depend on the processing

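No paired analysis was possible because only 1 library was analysed and its label gives no replicate number. Across Amotl2 level, 3 members were past the fold upward and 1 downward. These counts became 1 and 0 when cells were thinned to 2000 UMIs, 1 and 2 in immediate-early-low clusters only and 0 and 2 in those set at the pooled level (added after the data were seen), and the lower count was 0 with the summed UMIs of Amotl2, Ajuba and Cyr61. Between Amotl2-high and Amotl2-low clusters, the 1 higher member became 2 with nothing regressed out, in M cells only, for means over cells and without cluster 6 (also added), and 0 in F cells only. Between classes, the 2 higher members became 1 with nothing regressed out, without cells that had both Xist and a Y-linked UMI, and with mitochondrial, ribosomal and member genes out of the total. The cause of these moves was not tested. Ratios past the fold crossed 1 in 4 runs, Igf1r across Amotl2 level (0.755, immediate-early-low clusters only, and 0.821 with the split at the pooled level), Igfbp6 (0.655, the same split) and Igfbp3 in MC (1.06, at most 5% mitochondrial UMIs). Ratios inside the fold or of genes under the level filter crossed 1 in 14 runs, among them Igfbp3 across Amotl2 level (1.20, immediate-early-high clusters only), Igfbp4 (0.954, immediate-early-low clusters set at the pooled level) and Igfbp6 in MC (1.35, M cells only).

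Over all genes, 469 were higher and 243 lower across Amotl2 level. These numbers were 305 and 153 for the top against the bottom 25% of cells by unthinned Amotl2 (ties included), 753 and 534 at 2000 UMIs, 233 and 71 with a mean of 50 CPM or more, 2055 and 1517 with no filter beyond 1 UMI in each set, 716 and 479 in M cells, 1244 and 1079 in immediate-early-low clusters, and 1209 and 1051 with the split at the pooled level. The lower count alone was 152 in cells of 8000 to 14000 UMIs, 407 with mitochondrial, ribosomal and member genes out of the total, and 87 with the summed targets. Of the other pathway genes, 5 in place of 1 were lower at 2000 UMIs. The other 89 of 122 counts run under an alternative stayed within 1.5 times.

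Depth limits the rarest genes most, since Igf2 had 8 UMIs and Igfbp2 249, and the small classes, with 45 to 76 cells in vFB3, MC and SMC. The share of villus fibroblasts with an Igf1 UMI was 43.5% at 2000 UMIs and 82.2% unthinned. F to M ratios were run under 3 settings added after the data were seen, and none of 24 turned direction.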
